A study of Mus musculus with 19 samples.

Results

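Sox2, Lgr5, Slc2a3, Gng4, L1cam and Tfap2b changed sides between the fetal urogenital sinus and the fetal skin: each gene was higher in the epithelium at one site and higher in the mesenchyme at the other. They are 6 of the 17360 genes with a usable probe set of their own. The members were chosen from these same values, because their epithelium minus mesenchyme difference on the log2 scale has opposite signs in urogenital sinus and skin. That choice uses both within-site differences, which are therefore given as a description, without a test. By sign alone 5169 genes qualify, and 86 of them changed more than 2-fold at both sites with an adjusted p under 0.01. The 6 genes lie among the 86, which is a description and not a test of them, since the same values chose them. The 6 genes are covered by 14 probe sets, and all 14 passed the filter on low values.

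The tissues came from C57BL/6 mouse embryos at embryonic day 16. Urogenital sinus epithelium (UGE, n = 6) and urogenital sinus mesenchyme (UGM, n = 5) were parted with trypsin, and epidermis (n = 4) and dermis (n = 4) of back skin were parted by hand after a night in dispase at low temperature. The urogenital sinus is the fetal rudiment of the prostate, and skin was included to tell transcripts of any epithelium or mesenchyme from those of the prostate rudiment. Each array holds RNA of pooled embryos, and both sites were dissected from shared embryos in the study, so the groups are not fully independent. The labels give no genetic change or drug for any group, and do not give the sex of the embryos. Site and separation method cannot be told apart. Values are the authors' normalised array intensities, taken here on the log2 scale.

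The labelled tissues carried their markers, but not every array was clean. All 9 urogenital epithelial markers measured were higher in UGE than UGM, and all 10 mesenchymal ones were higher in UGM than UGE. UGE replicates 2 and 3 carried mesenchymal transcripts, with a mean log2 level of the 10 mesenchymal markers of 9.39 and 9.42, against 6.78 to 8.51 in the other UGE arrays and 12.1 to 12.4 in UGM. UGM replicate 2 carried epithelial transcripts, with Krt5, a basal keratin, at 8.78 against 6.62 to 7.11 in the other UGM arrays. Skin was parted less cleanly: Krt5 was 13.85 in epidermis and 13.28 in dermis, and Col1a1, a fibroblast collagen, was 10.36 in epidermis and 12.37 in dermis. Dermis replicate 1 had the highest level of the 10 keratinocyte markers among dermis arrays, 12.4 against 10.8 to 12.0. In bulk tissue, fewer cells of a type and less RNA per cell cannot be told apart.

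The members belong to different kinds of molecule. Sox2 is an HMG-box transcription factor of stem and progenitor cells, known in skin from the dermal papilla and Merkel cells, and Lgr5 is a receptor for R-spondins, the secreted enhancers of Wnt signalling, known from intestinal and hair follicle stem cells. Tfap2b is an AP-2 transcription factor of neural crest derivatives, kidney and skin, Slc2a3 is the glucose transporter GLUT3, best known in neurons, Gng4 is a gamma subunit of heterotrimeric G proteins, and L1cam is a neural cell adhesion molecule of the immunoglobulin superfamily. Epithelium and mesenchyme exchange signals in both organs, and hair follicle and prostate buds both arise from that exchange.

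Promoter sequence was read for the 4 members with a RefSeq window, to show whether genes with the same reversal carry the same letters upstream. The windows are the 250 bases before the annotated start in GRCm38.p6, written 5′ to 3′ on the gene's strand. They lie at chr3:34649745-34649994 (plus strand) for Sox2, chr13:13783809-13784058 (plus strand) for Gng4, chrX:73880835-73881084 (minus strand) for L1cam and chr1:19211804-19212053 (plus strand) for Tfap2b. Gng4 and L1cam each have 2 windows, of which the one nearest to the gene's annotated start was used, and the Tfap2b window lies inside the annotated gene. Capitals mark matches to the SOX motif.
Sox2: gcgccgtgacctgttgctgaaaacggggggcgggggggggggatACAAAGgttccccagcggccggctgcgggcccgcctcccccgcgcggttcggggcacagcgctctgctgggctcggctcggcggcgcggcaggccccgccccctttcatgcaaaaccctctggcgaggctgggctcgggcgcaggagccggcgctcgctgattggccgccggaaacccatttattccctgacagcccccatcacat
Gng4: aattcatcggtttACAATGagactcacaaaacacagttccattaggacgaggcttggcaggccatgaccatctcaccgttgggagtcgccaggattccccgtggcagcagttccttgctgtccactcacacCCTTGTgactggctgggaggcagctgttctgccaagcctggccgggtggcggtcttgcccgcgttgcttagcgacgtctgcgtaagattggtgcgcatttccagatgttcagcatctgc
L1cam: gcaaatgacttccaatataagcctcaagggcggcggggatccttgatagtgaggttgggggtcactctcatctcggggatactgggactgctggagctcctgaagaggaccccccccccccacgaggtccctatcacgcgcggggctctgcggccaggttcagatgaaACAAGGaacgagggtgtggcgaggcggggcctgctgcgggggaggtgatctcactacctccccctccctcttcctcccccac
Tfap2b: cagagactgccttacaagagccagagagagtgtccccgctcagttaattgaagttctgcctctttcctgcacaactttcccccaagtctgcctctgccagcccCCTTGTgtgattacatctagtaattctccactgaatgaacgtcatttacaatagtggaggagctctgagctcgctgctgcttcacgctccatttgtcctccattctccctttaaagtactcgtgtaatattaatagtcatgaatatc
The motifs below were searched on both strands. The SOX letters ACAANG matched at 206 bases before the start of Sox2, at 237 and 119 bases before Gng4, at 82 bases before L1cam and at 147 bases before Tfap2b. They occur in 36.3% of all 32851 windows of this length, so that a match is common. The AP-2 letters GCCNNNGGC, found in 13.7% of windows, and the TCF/LEF letters CTTTGNT, found in 16.0%, had no match in these 4 windows. The TCF/LEF letters can overlap a SOX match read on the other strand. These matches are descriptions of the letters only. The windows of Sox2, L1cam and Gng4 hold 72.0%, 63.2% and 56.4% G or C, above the median of 52.4% over all windows, and that of Tfap2b holds 46.4%.

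Sox2 and Lgr5 were epithelial in the urogenital sinus and mesenchymal in skin. Sox2 had log2 values of 11.51, 11.78 and 12.09 (lowest, median and highest) in UGE and of 6.59, 7.05, 6.43, 5.91 and 6.64 in UGM. In epidermis Sox2 was 6.21, 6.17, 5.90 and 5.28, and in dermis 7.44, 8.36, 8.17 and 7.81. The groups did not overlap within either site, whereas the UGM and epidermis values overlapped. Mean Sox2 was 5.26 ± 0.18 (SE) higher on the log2 scale in UGE than UGM, a 38.3-fold difference, and 4.15-fold higher in dermis than epidermis (epidermis minus dermis, -2.05 ± 0.25). The order of levels was thus UGE (11.78 ± 0.23, SD), dermis (7.95 ± 0.41), UGM (6.52 ± 0.41) and epidermis (5.89 ± 0.43), and the ranges of the last pair overlapped.

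Lgr5 had the smaller span of the pair. Its log2 values were 9.38, 9.71 and 9.97 (lowest, median and highest) in UGE and 7.55, 7.59, 7.61, 7.35 and 7.58 in UGM. They were 5.36, 5.99, 5.85 and 6.07 in epidermis and 7.94, 8.18, 8.02 and 8.04 in dermis. No groups overlapped, and the order was UGE, dermis, UGM, epidermis as for Sox2. The differences were nearly mirror images: Lgr5 was 4.46-fold higher in UGE than UGM (2.16 ± 0.11, SE) and 4.69-fold higher in dermis than epidermis (-2.23 ± 0.16). UGM and dermis, the mesenchymes, were close, with a UGM minus dermis difference of -0.51. A second, dim probe set, 1444519_at, ran from 5.22 to 6.61 over all arrays and its groups overlapped within both sites.

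**Figure D1:**
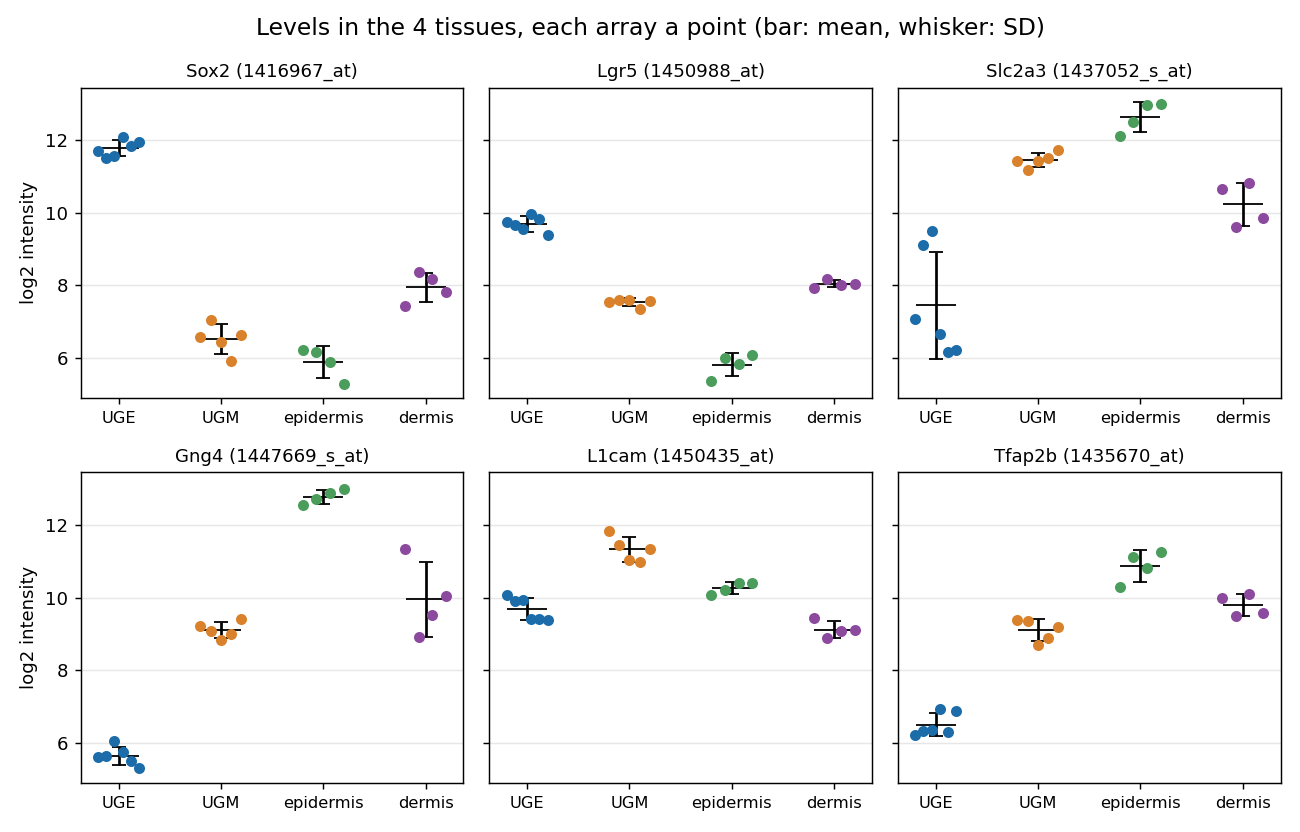
Log2 intensity (y axis) of the 6 genes in UGE, UGM, epidermis and dermis (x axis), each array a point, with the group mean as a bar and the SD as a whisker. Sox2 and Lgr5 peak in UGE and fall lowest in epidermis, Slc2a3, Gng4 and Tfap2b are lowest in UGE and highest in epidermis, and L1cam is highest in UGM.

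Slc2a3, Gng4, Tfap2b and L1cam ran the other way, mesenchymal in the urogenital sinus and epithelial in skin. Slc2a3 (1437052_s_at) had log2 values of 6.16, 6.88 and 9.49 (lowest, median and highest) in UGE and of 11.43, 11.19, 11.42, 11.50 and 11.74 in UGM. It was 12.12, 12.50, 12.98 and 12.99 in epidermis and 10.66, 9.61, 10.83 and 9.86 in dermis. UGE was the lowest group, no groups overlapped within a site, and UGE was also the most scattered (SD 1.47). The wide scatter lay in UGE replicates 2 and 3, at 9.10 and 9.49, the arrays with mesenchymal transcripts, while the other 4 UGE arrays were between 6.16 and 7.09. The mean of 3 Wolffian and Mullerian duct markers also stood apart in these arrays, at 7.40 and 7.75 against 5.68 to 6.09 in the other UGE arrays. The part of either cell type in the Slc2a3 values was not tested. Mean Slc2a3 was 16.0-fold higher in UGM than UGE (-4.0 ± 0.58, SE) and 5.31-fold higher in epidermis than dermis (2.41 ± 0.30). Without UGE replicates 2 and 3 the first difference was -4.92.

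Gng4 was read from its brightest probe set, while 1417943_at and 1417944_at had smaller UGE minus UGM differences (-0.51 and -0.146). Its log2 values (1447669_s_at) were 5.32, 5.63 and 6.05 (lowest, median and highest) in UGE and 9.23, 9.08, 8.83, 9.01 and 9.42 in UGM. They were 12.55, 12.71, 12.88 and 12.99 in epidermis and 11.35, 8.91, 9.51 and 10.04 in dermis. Epidermis stood above every other array, and UGM overlapped dermis. Gng4 was 11.1-fold higher in UGM than UGE (-3.47 ± 0.14, SE) and 7.11-fold higher in epidermis than dermis (2.83 ± 0.42). Dermis replicate 1, the array with the most keratinocyte transcripts, held the highest dermis value, and without it the epidermis minus dermis difference was 3.29. Among the 4 dermis arrays Gng4 had the same order as the keratinocyte markers, whose mean log2 levels were 12.4, 10.8, 11.5 and 12.0. L1cam had this order in dermis too and Sox2 the reverse, while Slc2a3, Tfap2b and Lgr5 had neither. The keratinocyte markers averaged 5.84 to 6.73 in UGM and 9.20 to 9.62 in UGE, where Gng4 was lowest. The part of keratinocyte transcripts in the Gng4, L1cam and Sox2 values was not tested.

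**Figure D2:**
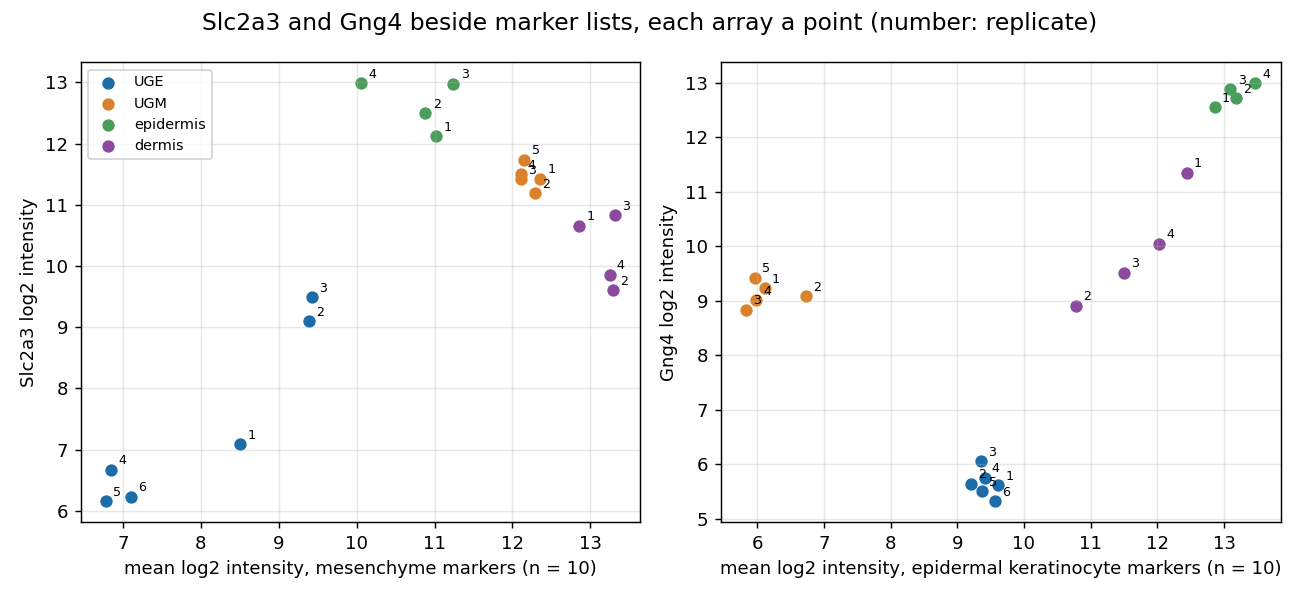
Log2 intensity of Slc2a3 against the mean log2 intensity of 10 mesenchymal markers (left) and of Gng4 against that of 10 keratinocyte markers (right), each array a point numbered by replicate and coloured by tissue. UGE replicates 2 and 3 stand above the other UGE arrays on both axes at left, and the 4 dermis arrays rise together at right while UGM lies near 9 on the Gng4 axis at low keratinocyte levels.

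Tfap2b followed Gng4 at smaller amplitude in skin. Its log2 values (1435670_at) were 6.22, 6.33 and 6.92 (lowest, median and highest) in UGE and 9.38, 9.37, 8.70, 8.90 and 9.20 in UGM. They were 10.29, 11.13, 10.81 and 11.26 in epidermis and 9.99, 9.51, 10.10 and 9.57 in dermis. The 4 groups did not overlap, and rose in the order UGE, UGM, dermis, epidermis. Tfap2b was 6.11-fold higher in UGM than UGE (-2.61 ± 0.17, SE) and 2.11-fold higher in epidermis than dermis (1.08 ± 0.22), just past the 2-fold threshold. Its second probe set, 1423340_at, gave the same order of groups, with means of 5.63, 8.30, 9.11 and 10.36 in UGE, UGM, dermis and epidermis. In that probe set UGE replicates 2 and 3 were both at 6.43, against 5.035 to 5.403 in the other UGE arrays.

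L1cam was strong in all 4 tissues and had its highest level in UGM. Its log2 values (1450435_at) were 9.39, 9.66 and 10.06 (lowest, median and highest) in UGE and 11.83, 11.44, 11.04, 10.99 and 11.33 in UGM. UGE replicates 1 to 3 lay at 9.895 to 10.06 and replicates 4 to 6 at 9.39 to 9.42. The mesenchymal markers averaged 8.51 to 9.42 in the former and 6.78 to 7.11 in the latter, and their part in L1cam was not tested. The skin values of L1cam follow. L1cam was 10.06, 10.21, 10.41 and 10.41 in epidermis and 9.43, 8.88, 9.07 and 9.10 in dermis. The groups of each site were apart, but the UGE range overlapped those of both epidermis and dermis, so that the place of UGE in the order was not resolved. L1cam was 3.12-fold higher in UGM than UGE (-1.64 ± 0.18, SE) and 2.22-fold higher in epidermis than dermis (1.15 ± 0.14). Of the 4 genes that ran this way, it alone had a lower mean in epidermis than in UGM.

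Probe sets of the same gene did not always agree in size or sign. Slc2a3 1455898_x_at repeated the pattern of 1437052_s_at, with means of 6.12, 10.11, 11.51 and 8.93 in UGE, UGM, epidermis and dermis. Both are annotated to the same source sequence, so the repeat is not independent of the first. The _s_at and _x_at endings mark probe sets that can match more than one transcript, and the identity of this signal rests on the annotation. The same limit holds for Gng4, read from 1447669_s_at, whose UGE minus UGM difference of -3.47 no other Gng4 probe set repeated in size. Slc2a3 1421924_at and 1427770_a_at stayed between 3.74 and 4.90, near or under the lower quartile of all probe sets on these arrays (4.70 to 4.92). Gng4 1417943_at was 8.89 in epidermis and 5.80 in dermis but only 4.84 in UGM and 4.33 in UGE, where the last 2 levels lay at or under that quartile. Gng4 1417944_at was flat, at 6.84, 6.99, 7.10 and 7.18 in UGE, UGM, epidermis and dermis. L1cam 1421958_at was between 4.19 and 5.05 in every array.

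**Figure D3:**
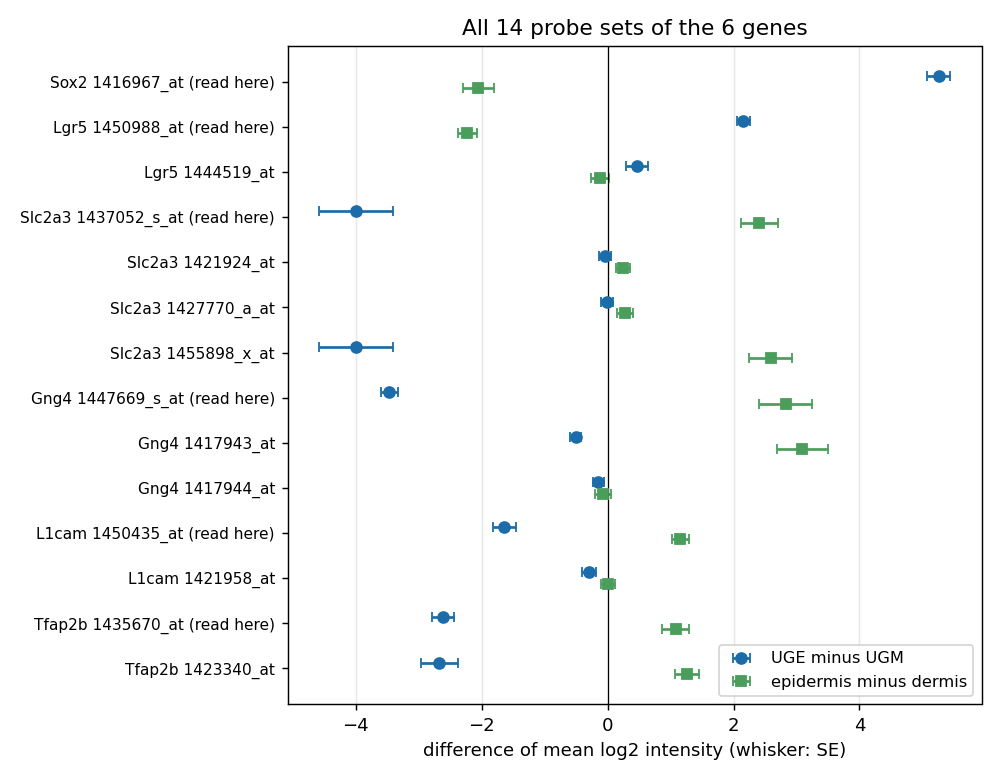
Difference of mean log2 intensity (x axis, whisker SE) for each of the 14 probe sets (y axis), UGE minus UGM as circles and epidermis minus dermis as squares. The probe sets read for the 6 genes have their circle and square on opposite sides of 0, as the choice of the genes requires, and the dim second probe sets lie near 0, except Gng4 1417943_at, which shows the skin difference, and the second probe sets of Slc2a3 and Tfap2b that repeat the first.

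Of 41549 tested probe sets, 5.85% were higher in UGE, 7.40% higher in UGM, 6.07% higher in epidermis and 7.60% higher in dermis. Only 126 probe sets, 0.303%, were called at both sites with opposite signs, against 2652, 6.38%, with the same sign. The 126 became 69 with 50 added before log2, 83 with the methods' t-test and 8 with treat, limma's test against 2-fold. The direction of Sox2 and Lgr5 held 81 probe sets (0.195%), and that of the other 4 genes held 45 (0.108%). Ranked by the smaller of the 2 differences among the 5169 genes of opposite sign, Gng4 was at rank 1 (2.83), Slc2a3 at 3 (2.41), Lgr5 at 8 (2.16), Sox2 at 10 (2.05), L1cam at 60 (1.15) and Tfap2b at 77 (1.08). At the edge of the sign rule, Bmerb1 lay just inside with -2.04 in the urogenital sinus and 0.000868 in skin, and Inpp5f just outside with -2.15 and -0.000228. Since these ranks use the values that chose the genes, nothing is read from them.

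**Figure D4:**
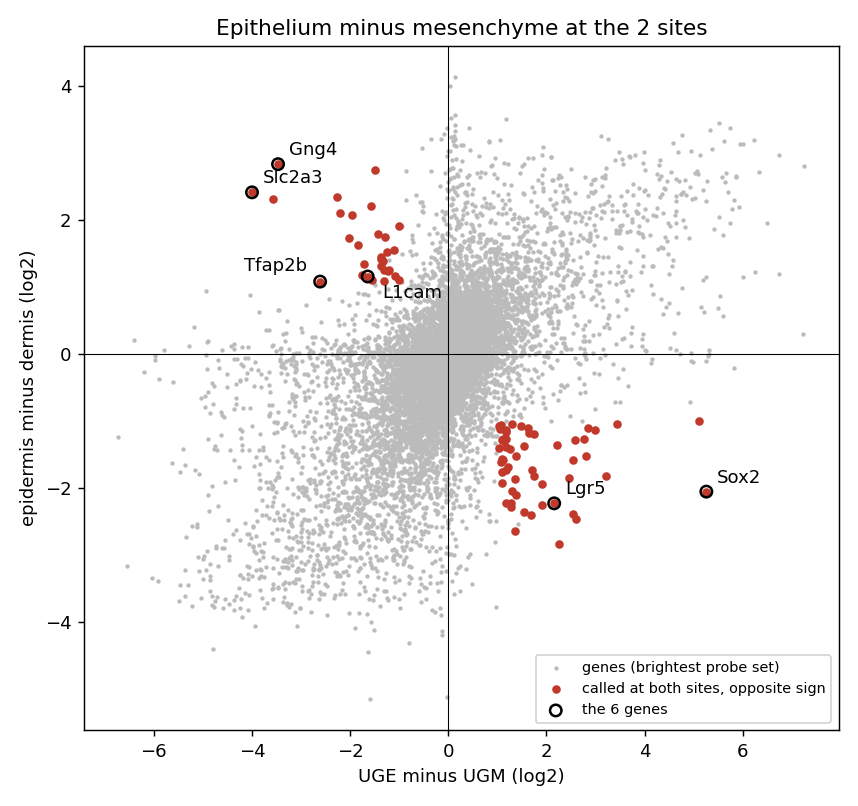
UGE minus UGM (x axis) against epidermis minus dermis (y axis) on the log2 scale for every gene, read from its brightest probe set. The 86 genes past both thresholds with opposite signs are in red in the upper left and lower right, with the 6 genes ringed, and most genes with large differences lie in the other corners.

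The level of the 6 genes by site, averaged over epithelium and mesenchyme, is a contrast other than those that chose them. Its errors are uncorrelated with the choosing contrasts where all groups have the same spread and size, and by the groups' own SDs the correlation was between -0.341 and 0.171 for Sox2, L1cam and Tfap2b. For Slc2a3 it was 0.822 with the UGE minus UGM difference, for Gng4 0.903 and for Lgr5 -0.704 with the epidermis minus dermis difference, so the site differences of these 3 are given as a description, with no p. Sox2 and Lgr5 were higher in the urogenital sinus, Gng4, Slc2a3 and Tfap2b were higher in skin, and L1cam did not reach 2-fold. In the limma fit of all 19 arrays Sox2 and Tfap2b passed both thresholds, and L1cam, the other gene tested, did not. Of all tested probe sets 11.0% passed both, 6.41% higher in the urogenital sinus and 4.63% higher in skin. The same test called 54.8% of the 126 probe sets with called opposite signs, so that a site difference was frequent among such probe sets and not particular to these genes.

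Gng4 had the widest site difference, a urogenital mean of 7.38 against 11.37 in skin (-3.99 ± 0.22, SE), and 7 of 11 urogenital arrays lay below all 8 skin arrays. Tfap2b was lower in all 11 urogenital arrays than in any skin array, by 5.76-fold (-2.53 ± 0.15; limma, Benjamini-Hochberg adjusted p = 6.58e-11). Sox2 was 4.71-fold higher in the urogenital sinus (2.24 ± 0.16; adjusted p = 1.11e-09, limma) and Lgr5 3.21-fold (1.68 ± 0.09). In both, only the 6 UGE arrays lay above all skin arrays, while UGM was below dermis by 1.42 for Sox2 (UGM minus dermis, -1.42). Slc2a3 was 3.96-fold lower in the urogenital sinus (-1.99 ± 0.39), again through UGE, since UGM was above dermis by 1.22. L1cam was 1.75-fold higher in the urogenital sinus (0.81 ± 0.13; adjusted p = 2.53e-05, limma), below the 2-fold threshold, and its 5 arrays above all skin arrays were those of UGM.

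Of 97 relatives and pathway genes of the 6, 92 were tested: 17 were higher in UGE, 21 in UGM, 12 in epidermis and 22 in dermis. Over all probe sets these directions held 5.85%, 7.40%, 6.07% and 7.60%. No relative was called at both sites with opposite signs (0 by limma and by the methods' t-test), which at an array share of 0.303% is not below the background. At an unadjusted p under 0.05 at both sites, 2 relatives had opposite signs: Slc2a12 (1.44 in the urogenital sinus and -0.67 in skin) and Gng7 (-0.90 and 0.57). The interaction, the difference between the sites itself, was called for 20 of the 92 (21.7%), beside 9.31% of all tested probe sets. The lists were chosen with earlier results known, so no enrichment is read from these counts.

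Of the AP-2 relatives of Tfap2b, Tfap2a and Tfap2c were epithelial at both sites. Tfap2a, a regulator of epidermal and neural crest genes, was higher in UGE by 1.72 ± 0.12 (SE; limma adjusted p = 2.33e-07) and in epidermis by 1.69 ± 0.23 (adjusted p = 0.000368). Tfap2c was higher by 3.50 in UGE and 1.91 in epidermis (limma adjusted p = 8.23e-09 and 0.000248). Tfap2e was near background in the urogenital sinus (4.37 in UGE and 4.34 in UGM) and higher in epidermis by 1.88, and Tfap2d was called at neither site (0.16 and -0.01). Thus 2 of 4 relatives were called in UGE, 3 in epidermis and none in either mesenchyme. The array shares were 5.85% in UGE, 6.07% in epidermis, 7.40% in UGM and 7.60% in dermis.

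Among 17 tested Sox relatives, 3 were called in UGE, 2 in UGM, 1 in epidermis and 4 in dermis, beside array shares of 5.85%, 7.40%, 6.07% and 7.60%. Sox9, a factor of epithelial progenitors and cartilage, was higher in UGE by 1.52 ± 0.15 (SE; limma adjusted p = 6.1e-06), with 0.11 between epidermis and dermis. Sox21, of the group B factors like Sox2, was higher in UGE by 1.5 and differed by 0.44 in skin, not called. Sox18, an endothelial factor, was higher in both mesenchymes (UGE minus UGM -3.32, epidermis minus dermis -3.51). The 6 endothelial markers tested were all higher in both mesenchymes too, and their part in the Sox18 difference was not tested.

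The receptors next to Lgr5 split. Lgr4, its widely expressed relative, was higher in UGE by 1.81 ± 0.15 (SE; limma adjusted p = 1.03e-06) and level in skin (0.01 ± 0.26). Lgr6 was not called at either site, at 0.29 and 0.61. Of the 4 R-spondin ligands, 2 were called in both mesenchymes: Rspo3 was higher in UGM (-5.37) and in dermis (-3.61), with limma adjusted p of 4.24e-07 and 3.68e-06, and Rspo1 followed it (-1.58 and -2.09). Rspo2 (0.09 and 0.07) and Rspo4 (0.01 and 0.05) were called at neither site. Rnf43, a membrane ubiquitin ligase that limits Wnt receptors, was epithelial, by 3.51 in UGE and 1.58 in epidermis. Of 10 Wnt feedback targets, 1 was called in UGE, 3 in UGM, none in epidermis and 4 in dermis, with the same array shares in these directions (5.85%, 7.40%, 6.07% and 7.60%). The dermal 4 were Nkd1, Nkd2, Sp5 and Dkk1, with epidermis minus dermis differences of -3.03, -2.29, -1.98 and -2.98.

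Around Slc2a3, the glucose transporter GLUT1 (Slc2a1) was epithelial at both sites, higher by 2.50 ± 0.13 in UGE and 1.23 ± 0.19 in epidermis (SE; limma adjusted p = 1.94e-08 and 0.000673). Slc2a1 and Slc2a3 hence had opposite signs in the urogenital sinus and the same sign in skin. Slc2a10 was higher in UGM (-1.85) and dermis (-2.49), and so was Slc2a13 (-1.08 and -1.19). Of 18 glycolysis and hypoxia genes, 6 were called in UGE, 1 in UGM, 4 in epidermis and 1 in dermis, of which the single genes in UGM and dermis are near the array shares of 7.40% and 7.60%. Hk2, the hexokinase that traps glucose, was higher by 1.90 in UGE and 1.36 in epidermis, and the hypoxia-responsive Egln3 and Ndrg1 were called in both epithelia.

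Of 15 other beta and gamma subunits, 5 were called in UGM, 4 in dermis and none in an epithelium, and most were called at neither site. The array shares were 7.40% in UGM, 7.60% in dermis, 5.85% in UGE and 6.07% in epidermis. Gng2 was higher in UGM by 2.17 (-2.17 ± 0.13, SE; limma adjusted p = 6.99e-08) and in dermis by 1.90 (-1.90 ± 0.19; adjusted p = 5.88e-05), and Gng11 and Gnb4 were called in both mesenchymes too. Gng12 was called at neither site (-0.21 and 0.86). None of the other gamma subunits tested was called in epidermis, where Gng4 had its highest level. At an array share of 6.07% and so few genes, nothing is read from that absence.

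Of 10 relatives and membrane partners of L1cam, 6 were called in UGM, 2 in epidermis and 5 in dermis, beside array shares of 7.40%, 6.07% and 7.60%. Nrcam, an L1-family molecule of axons, was higher in UGM (-4.03 ± 0.16, SE; limma adjusted p = 1.69e-09) and in dermis (-2.75 ± 0.28; adjusted p = 5.46e-05). Chl1, the close homologue of L1, was higher in epidermis by 2.42 ± 0.33 (limma adjusted p = 0.00033), with 0.13 in the urogenital sinus. Ncam1, Ank2 and Nrp1 were called in both mesenchymes.

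**Figure D5:**
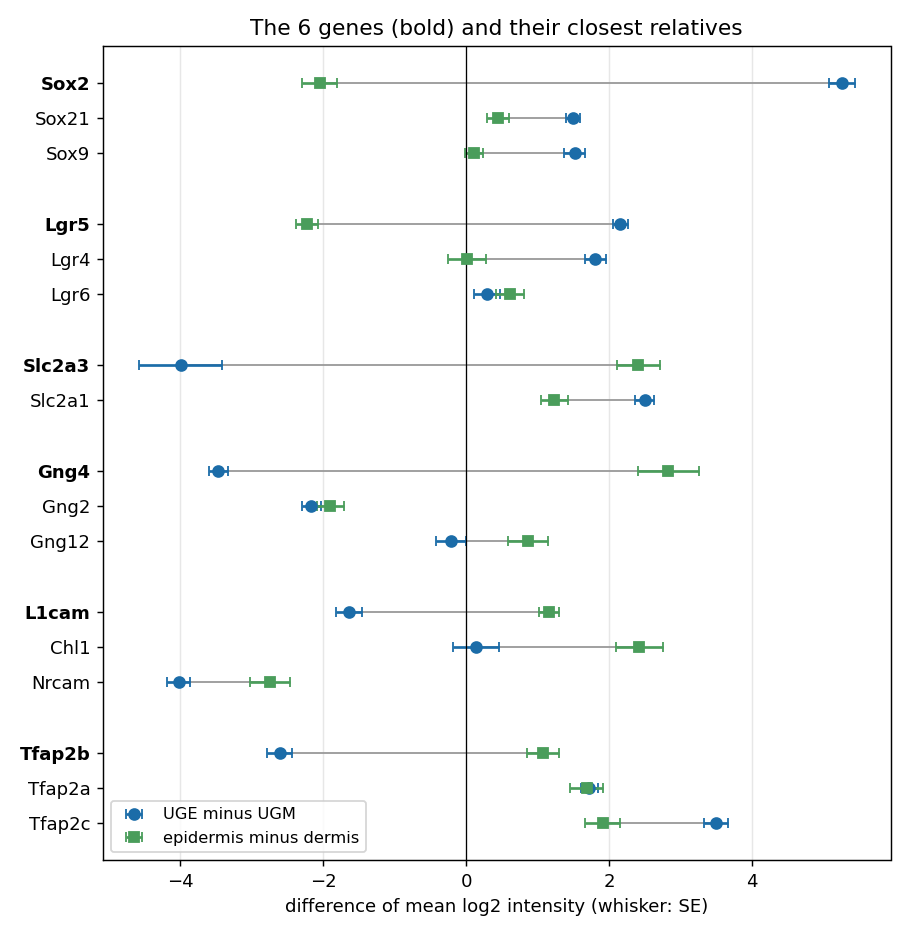
Difference of mean log2 intensity (x axis, whisker SE) of the 6 genes (bold) and their relatives (y axis), UGE minus UGM as circles and epidermis minus dermis as squares. The 6 genes have the pair on opposite sides of 0, whereas Tfap2a, Tfap2c and Slc2a1 have both at right and Gng2 and Nrcam both at left.

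Marker lists of other cell types also differed between the tissues. All 14 autonomic neuron markers tested were higher in UGM than UGE, and their summed intensity was 28508 to 38585 in UGM against 1487 to 2413 in UGE. The sum ran from 881 to 1060 in epidermis and from 1219 to 1513 in dermis. Of 7 Schwann cell and neural crest markers, 6 were called in UGM and 1, Erbb3, in UGE (2.67). In skin 3 were called in dermis and 1 in epidermis. Their mean log2 level was 8.02 to 8.41 in UGM, 6.37 to 6.73 in UGE, 6.78 to 7.35 in epidermis and 7.7 to 7.91 in dermis. Their summed intensity was 3615 to 4458 in UGM, 2935 to 3501 in UGE, 2945 to 3173 in epidermis and 2277 to 2506 in dermis. Slc2a3, Gng4, L1cam and Tfap2b were high in the same UGM arrays, and the part of neurons and of these crest-derived cells in their UGM level was not tested. In epidermis, where these 4 genes were also high, the neuronal sum was the lowest of all tissues. Of 7 melanocyte markers, 4 were called in epidermis and 1, Kit, in dermis (epidermis minus dermis, -1.43). Mitf (-0.14) and Tyrp1 (-0.387) leaned to dermis and were not called. The summed intensity of the list was 3213 to 7730 in epidermis, 3189 to 3754 in dermis and 697 to 1298 in the urogenital sinus. Dct, a melanin enzyme, had means of 11.09 in epidermis and 9.38 in dermis. Epidermis replicate 4 had the highest Gng4 value, the lowest melanocyte sum, the lowest mean of the mesenchymal markers (10.06 against 10.88 to 11.24 in the other epidermis arrays) and the highest mean of the keratinocyte markers (13.46). The part of melanocytes in the epidermal levels was not tested.

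Dermal papilla and Merkel cell markers were read beside Sox2. Of 9 dermal condensate and papilla markers, 4 were higher in dermis and 5 in UGM. Their summed intensity was 11123 to 15159 in dermis against 1850 to 2467 in epidermis, and 6605 to 10074 in UGM against 1522 to 2960 in UGE. The sum was led in dermis by Crabp1 (mean log2 12.82) and Vcan (11.99), and in UGM by Vcan (12.29). Prdm1 (epidermis minus dermis, -0.235), Alpl (-0.061), Alx4 (0.205), Fgf10 (-0.2) and Corin (-0.764) were not called in skin. Sox2 lay between 5.91 and 7.05 in UGM, and the part of papilla cells in its dermal level was not tested. Of 10 Merkel cell markers, 2 were called in each of the 4 tissues, and their summed intensity (UGE 24960 to 28135, UGM 7601 to 10190, epidermis 2447 to 3327, dermis 1004 to 1318) was led in UGE by Krt8 and Krt18, which simple epithelia share, and in UGM by Isl1. Of the defining Merkel factors, Pou4f3 lay between 4.00 and 5.22 in all arrays, and Atoh1 between 6.24 and 6.86 in epidermis, 5.92 and 6.84 in dermis, 5.59 and 6.24 in UGE and 5.24 and 5.45 in UGM. The part of Merkel cells in the Sox2 levels was not tested. Of 8 hair placode and germ genes, 1 was called in dermis (Lhx2, -1.76) and none in epidermis, and 6 of the 8 had an epidermis minus dermis difference above 0, with a list median of 0.13. The part of hair germ cells in the dermis was not tested.

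Over the 19 arrays the genes most like each member in level were found by Pearson's r, given as a description, since points share tissue and the tissues form separate clusters. Sox2 was followed by Slc1a5 (0.990), Cpne8 (0.985) and Slc14a1 (0.976). Within tissues, after tissue means were removed, these 3 had r of 0.106 to 0.518 with Sox2. Lgr5 was followed by Paqr8 (0.966), Steap2 (0.964) and Acss1 (0.961), with r of -0.271 to 0.563 within tissues. Slc2a3 was followed by Ptger3 (0.957), Chst15 (0.950) and Fez1 (0.945), with r of 0.867 to 0.909 within tissues. Slc2a3 scattered most in UGE (SD 1.47), in replicates 2 and 3, and the part of these arrays in that r was not tested. Gng4 and Tfap2b shared their nearest gene, Degs1 (0.970 and 0.978), with r of 0.408 and 0.24 within tissues. L1cam was followed by Mettl7a1 (0.963), Sipa1l2 (0.962) and Mgat5b (0.935), with r of 0.624 to 0.812 within tissues. Between members r was 0.965 for Gng4 with Tfap2b and 0.921 for Sox2 with Lgr5, whereas L1cam had r of -0.513 to 0.518 with the others.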

How the data were processed

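RNA of 19 samples (6 UGE, 5 UGM, 4 epidermis, 4 dermis) was read on Affymetrix MOE430 2.0 arrays. The deposited values are linear intensity per probe set, normalised between arrays by the authors. The study names GCOS 1.4, MAS5 and PLIER, but the sources used here do not give which of them made these values. Array medians ran from 76.2 to 81.6, and the number of arrays limits the precision. Groups were taken from the sample labels.

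Values were put on the log2 scale with no further normalization. The 64 control probe sets were left out, and of 45101 probe sets the 41549 that exceeded 20 in any sample entered the fits, made with the limma package 3.58.1 under R 4.3.3 (lmFit, eBayes, 2-sided, Benjamini-Hochberg over all tested probe sets). Called means an adjusted p under 0.01 and over 2-fold. UGE and UGM, and epidermis and dermis, were compared in fits of their own. The site difference, (UGE + UGM)/2 minus (epidermis + dermis)/2, came from 1 fit of all 4 groups. The contrasts that chose the genes are not tested for the 6 genes, and the site difference is tested only for Sox2, L1cam and Tfap2b, since for Lgr5, Slc2a3 and Gng4 unequal spread between groups ties it to them. That check was added after seeing the data.

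Probe sets were named from the platform annotation: 34945 have 1 symbol, 932 several and 9160 none. A gene was read from the brightest of its tested probe sets (mean log2 over all arrays). The named genes are the 6 members, their closest relatives, up to 4 called genes with the largest change in each family list, markers a result turns on, and the 3 genes with the highest r for each member. The members and lists were chosen with earlier results of these data known. The fits were checked on simulated data. Promoter windows came from RefSeq (4 of 6 genes matched), with Python 3.11.15 and matplotlib 3.10.9 for figures.

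Deviations of same-numbered epidermis and dermis arrays from their group means had a positive r (0.343, 0.108, 0.264 and 0.168). The skin numbers were therefore taken to pair the arrays, from the data and not from the labels. UGE and UGM numbers gave r of either sign (-0.406 to 0.648). No r between arrays of different numbers is given beside these, so they do not settle the pairing. The main fits used no pairing, in skin as well. Alternatives were a replicate block, 50 added before log2, other filters, quantile normalization, treat, the methods' t-test, other probe sets and leaving out arrays. Leaving out UGE replicates 2 and 3, UGM replicate 2 and dermis replicate 1 together, and setting array medians equal, were chosen after seeing the data.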

Additional observations from a re-analysis of the deposited data

Results flagged for a closer look

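In 56 groups of replicates of the members' probe sets, 2 held an array far from the others, where chance gives about 1 in 20. Lgr5 1444519_at, the dim second probe set, was 6.61 in UGE replicate 1 and at most 5.81 in the other UGE arrays. Lgr5 1450988_at was 7.35 in UGM replicate 4 and at least 7.55 in the other UGM arrays.

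Of 92 tested relatives, 20 (21.7%) had an epithelium minus mesenchyme difference that itself differed between the sites, by the limma interaction (urogenital sinus minus skin, adjusted p under 0.01 and over 2-fold, beside 9.31% of all tested probe sets). The interaction was positive, with UGE minus UGM above epidermis minus dermis, for Dkk1 (3.0), Sp5 (2.41), Sox11 (2.14), Slc2a12 (2.11), P4ha1 (2.0), Rnf43 (1.93), Lgr4 (1.80), Tfap2c (1.59), Sox9 (1.41), Slc2a1 (1.26), Gnb5 (1.08) and Sox21 (1.05). It was negative, with UGE minus UGM below epidermis minus dermis, for Chl1 (-2.28), Gng3 (-1.93), Tfap2e (-1.85), Sox10 (-1.81), Gng7 (-1.47), Pfkp (-1.35), Nrcam (-1.28) and Nfasc (-1.07). The sign does not give the tissue with the higher level. Dkk1 was level in the urogenital sinus (0.02) and higher in dermis (epidermis minus dermis, -2.98), and Nrcam was higher in both mesenchymes (-4.03 and -2.75). Slc2a12 was called in UGE (1.44) and had the opposite sign in skin (-0.67) without being called there. Site and separation method cannot be told apart in these values.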

How the results depend on the processing

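Under 30 alternatives the tested Sox2 and Tfap2b passed both thresholds by site, Sox2 higher in the urogenital sinus and Tfap2b higher in skin. L1cam stayed under 2-fold. Site differences ran from 1.98 to 2.31 for Sox2, 1.31 to 1.73 for Lgr5, -2.62 to -1.71 for Slc2a3, -4.16 to -3.47 for Gng4, 0.67 to 0.88 for L1cam and -2.62 to -2.20 for Tfap2b, with limma adjusted p of at most 0.000578 for the tested Sox2, L1cam and Tfap2b. With the replicate block they were 2.19, 1.70, -1.71, -3.97, 0.88 and -2.56, and 122 probe sets were called with opposite signs. In the site fit this block tied arrays of the same number across all 4 groups, so it does not check the skin pairing alone. The block changed no call of Sox2, L1cam or Tfap2b by site. Other probe sets were weaker by site: Gng4 1417944_at -0.23, Slc2a3 1421924_at -0.36 and 1427770_a_at -0.25, and Lgr5 1444519_at 0.086. In Gng4 1417944_at epidermis minus dermis turned to -0.078.

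The 126 probe sets of opposite sign became 69 with 50 added before log2, 83 with the methods' t-test after Benjamini-Hochberg and 8 with treat, and ran from 114 to 143 with 1 array left out. Under treat, which tests against 2-fold, the relatives called were 11 in UGE, 13 in UGM and 0 in epidermis, against 17, 21 and 12. Low values near the lower quartile limit what dim probe sets can show. Without UGE replicates 2 and 3, UGM replicate 2 and dermis replicate 1 together, Slc2a3 UGE minus UGM was -4.99 and Gng4 epidermis minus dermis 3.29, and 142 probe sets had opposite signs. BioB, a spiked control, was 8.21 and 8.27 in UGE replicates 5 and 6, 7.47 to 8.23 in UGM and 9.02 to 9.29 in UGE replicates 1 to 4. With UGE replicates 5 and 6 only, UGE minus UGM was 5.38 for Sox2, -5.26 for Slc2a3 and -3.71 for Gng4.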

Other observations

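Gp1bb was the one gene of the cell type marker lists called at both sites with opposite signs. This platelet glycoprotein gene was higher in UGM than UGE (-1.44, limma adjusted p = 0.000856) and higher in epidermis than dermis (1.79, adjusted p = 0.000411), the direction of Gng4. None of the other 3 megakaryocyte markers tested was called at both sites with opposite signs.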
